A study of Mus musculus with 9 samples.

Results

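The heat shock proteins and their DNAJ co-chaperones were examined in hearts of male 8-month-old mice. Genes were taken by name, as those whose symbol begins with Hsp90, with Hspa, Hspb, Hspd, Hspe or Hsph and a number, or with Dnaja, Dnajb or Dnajc and a number. The endoplasmic reticulum gene Hspa5 and pseudogenes were left out. This gave 72 genes of the 41710 gene names in the deposited read table, namely 3 HSP90 genes, 13 HSP70 and HSP110 genes, 8 small heat shock proteins, 3 chaperonin genes, 4 DNAJA, 13 DNAJB and 28 DNAJC genes. All mice had the FVB/N strain background, and each group had 3 libraries of whole-heart RNA. Tg-RKIP mice carry an RKIP transgene (the RAF kinase inhibitor protein, gene Pebp1) under the alpha-MHC promoter, which is active in the myocardium, and the labels state that they had symptoms of heart failure. Tg-GRK2 mice carry a GRK2 transgene whose promoter is not given in the sources used here. The third group, FVB, was non-transgenic. The design addresses how the cardiac transcriptome of each transgenic group differs from that of the controls.

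Chaperones bind unfolded or partly folded proteins and keep them from aggregating. HSP70 proteins work in cycles of ATP hydrolysis that DNAJ proteins start through their J domain and that nucleotide exchange factors such as the HSP110 proteins and BAG proteins complete. HSP90 acts later on clients such as kinases and steroid receptors, the chaperonin HSP60 with its lid HSP10 folds proteins inside mitochondria, and the small heat shock proteins, abundant in striated muscle, hold unfolding proteins without using ATP. Heat shock factor 1 drives the inducible members of all of these families through heat shock elements in their promoters.

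The libraries held 25458108 to 33447654 reads on transcripts. Pebp1 reached 16198 TPM with the RKIP transgene, where FVB had 325 (TPM, reads divided by transcript length and rescaled to a common total, as means of 3 libraries). On normalised CPM, described below, it had 8262 against 294, a log2 fold change of 4.81. Grk2 differed from FVB by 0.054 on the log2 scale in the libraries labelled Tg-GRK2 (adjusted p = 0.354), so the data do not show the labelled transgene and these libraries are named by their label throughout. The mitochondrially encoded genes took 11.5% to 11.8% of the reads of Tg-RKIP libraries, 22.9% to 23.2% of those of FVB and 22.4% to 22.9% where the label was Tg-GRK2. Values per library are given as normalised CPM, read counts rescaled to a common library size after TMM scaling, which corrects library sizes for such differences in composition. Log2 fold changes and adjusted p-values come from edgeR's quasi-likelihood fit of all 15504 genes tested, with a threshold of 0.05. Their median in Tg-RKIP against FVB was 0.0085 with TMM, but 0.38 with libraries scaled to their total only, 0.18 with the total taken without mitochondrially encoded genes and 0.43 with limma on log2(TPM + 0.1) over the genes kept there, so directions in Tg-RKIP are relative to the median gene. Nothing in the labels beyond n = 3 mice ties a library to a separate heart, and the p-values measure the spread between these libraries, which was small (biological coefficient of variation 2.86%).

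Markers of the labelled tissue were present, with 7 cardiomyocyte genes summing to 45808 to 46666 TPM in Tg-RKIP against 48377 to 48684 TPM in FVB. With TMM 6 of these 7 were lower in Tg-RKIP, with a median log2 fold change of -0.83. Sums of TPM are on a scale where the median gene was 0.43 higher in Tg-RKIP, as given above. Several lists of other cells moved with the Tg-RKIP group. All 7 fibroblast markers were higher (2752 to 2775 against 970.3 to 1008 TPM summed), as were all 7 adipocyte markers (1011 to 1037 against 603 to 634 TPM) and all 6 macrophage markers (369 to 377 against 141 to 145 TPM). Of 4 smooth muscle markers 3 were higher and 1 lower (659.7 to 676 against 242 to 266 TPM). Of 5 endothelial markers 3 were higher and 2 lower (323 to 327 against 251 to 253 TPM), with a median log2 fold change of 0.086 with TMM. Of 6 skeletal muscle markers 3 were tested, 2 higher and 1 lower (5305 to 5426 against 2493 to 2494 TPM). This list was already high in the control hearts, so it does not separate skeletal from heart muscle. Of 5 cartilage markers 4 were tested and higher (334 to 341 against 12.3 to 13.0 TPM). With the Tg-GRK2 label 5 of 7 fibroblast markers were higher (1110 to 1122 TPM summed), as were 3 of 6 macrophage markers (156 to 161 TPM). Of the 7 adipocyte markers 4 were higher and 1 lower there, although their sum of 520 to 555 TPM was below that of FVB, and of the 7 cardiomyocyte markers 2 were higher and 5 lower (46338 to 47797 TPM). Smooth muscle markers gave 2 lower of 4, endothelial markers 1 higher and 2 lower of 5, and cartilage markers none of 4 called. Markers of club cells and red blood cells were higher in both transgenic groups. The 3 club cell markers summed to 58.0 to 61.3 TPM in Tg-RKIP, 146 to 155 TPM with the Tg-GRK2 label and 0.233 to 0.442 TPM in FVB, where Scgb1a1 and Scgb3a2 had 0 reads, and the 5 red blood cell markers to 3477 to 3645, 1665 to 1690.3 and 739 to 753 TPM. The 7 ciliated airway markers, of which Sntn had 0 reads in FVB, were low in all libraries. They summed to 4.02 to 5.16 TPM in Tg-RKIP, 2.38 to 2.62 with the Tg-GRK2 label and 1.83 to 2.33 in FVB. Of 4 tested, 1 was called higher in each transgenic group. In whole hearts fewer cells of a type and less RNA per cell cannot be told apart, and the part of these cell types in the results that follow was not tested.

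The promoters of 6 members are printed first, because heat shock elements in them are the known route by which the inducible members rise together. Heat shock elements are built of inverted GAA units, and pairs of units were searched as GAANNTTC and TTCNNGAA, which are palindromes and so the same on both strands. Windows of 300 bases, 250 before the transcription start and 50 after, came from RefSeq (GRCm38.p6) for 57 of the 72 members. Of these 57 members 16 (28.1%) held a pair in at least 1 window, and so did 15.1% of all 32851 promoter windows. Of the 74 windows of members, some genes having several, 18 (24.3%) did. A longer run, in which either pair is followed after 2 more bases by a repeat of its own first unit, looked for after the pairs had been counted, was in 6 of the 74 member windows (8.11%), those of Dnajb6, Hspd1, Hspe1 and Hsph1, and in 0.603% of all windows. In Hsph1 it lay after the transcription start, outside the sequence printed here. Each sequence below ends at the last base before the transcription start and is written 5′ to 3′ in the direction of the gene, with the matched letters in capitals. A match is a description of the sequence and not evidence of binding. Hspa1a (chr17:34972157-34972406, minus strand) and Hspa1b (chr17:34959239-34959488, minus strand) encode the inducible HSP70, and 247 of these 250 positions held the same base.
Hspa1a: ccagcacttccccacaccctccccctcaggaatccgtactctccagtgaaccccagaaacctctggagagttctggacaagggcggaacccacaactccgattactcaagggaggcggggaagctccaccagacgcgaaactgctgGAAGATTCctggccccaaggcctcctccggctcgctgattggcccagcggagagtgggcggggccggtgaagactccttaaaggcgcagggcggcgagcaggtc
Hspa1b: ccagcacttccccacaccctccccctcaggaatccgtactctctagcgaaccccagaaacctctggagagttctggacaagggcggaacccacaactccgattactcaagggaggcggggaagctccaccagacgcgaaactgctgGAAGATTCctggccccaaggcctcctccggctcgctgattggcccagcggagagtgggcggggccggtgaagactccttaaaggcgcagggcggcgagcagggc
Hspb1 (chr5:135887669-135887918, plus strand) and Hsph1 (chr5:149636316-149636565, minus strand) were members that rose in Tg-RKIP hearts.
Hspb1: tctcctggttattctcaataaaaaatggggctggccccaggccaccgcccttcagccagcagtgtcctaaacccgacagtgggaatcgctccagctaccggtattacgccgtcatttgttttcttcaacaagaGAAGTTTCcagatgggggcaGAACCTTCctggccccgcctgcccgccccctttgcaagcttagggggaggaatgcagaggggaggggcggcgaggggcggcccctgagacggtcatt
Hsph1: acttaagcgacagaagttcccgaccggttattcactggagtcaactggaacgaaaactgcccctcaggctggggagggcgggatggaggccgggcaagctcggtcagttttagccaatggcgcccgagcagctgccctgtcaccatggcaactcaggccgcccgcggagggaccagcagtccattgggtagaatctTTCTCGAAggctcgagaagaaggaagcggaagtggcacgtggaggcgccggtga
Hspe1 (chr1:55087898-55088147, plus strand) is divergently transcribed from Hspd1, and the 3 overlapping pairs in its window also lie in that of Hspd1. Dnaja1 (chr4:40722218-40722467, plus strand) was lower in the libraries labelled Tg-GRK2.
Hspe1: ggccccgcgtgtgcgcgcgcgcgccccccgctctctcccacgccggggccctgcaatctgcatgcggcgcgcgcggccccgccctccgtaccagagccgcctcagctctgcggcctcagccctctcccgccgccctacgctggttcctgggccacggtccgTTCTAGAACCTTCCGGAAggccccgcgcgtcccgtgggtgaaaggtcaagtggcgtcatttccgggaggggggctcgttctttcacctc
Dnaja1: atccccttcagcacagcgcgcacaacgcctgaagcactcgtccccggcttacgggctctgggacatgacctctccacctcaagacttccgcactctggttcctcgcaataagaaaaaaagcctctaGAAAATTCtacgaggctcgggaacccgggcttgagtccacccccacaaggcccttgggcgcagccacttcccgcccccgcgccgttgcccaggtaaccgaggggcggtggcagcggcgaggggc
A set of 14 members that heat shock is known to induce was made of Hspa1a, Hspa1b, Hspa8, Hsph1, Hsp90aa1, Hsp90ab1, Hspa4, Hspa4l, Dnaja1, Dnajb1, Dnajb4, Hspb1, Hspd1 and Hspe1. Of these 11 had a window and 8 held a pair (Dnaja1, Dnajb4, Hspa1a, Hspa1b, Hspb1, Hspd1, Hspe1 and Hsph1). The windows of Dnajb1 held none of these letters. Hspa8 and Hsp90ab1 are named below as constitutive, so counts for this set are not of inducible genes alone.

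In the control heart a few members made up most of the chaperone transcripts. Small heat shock proteins and constitutive cytosolic chaperones led, with Hspb7, the cardiovascular small heat shock protein, at 1342 ± 17.4 TPM (SD, n = 3) in FVB. It was followed by Hspa8, the constitutive HSP70, at 1167 ± 46.8 TPM, Hsp90ab1, the constitutive HSP90, at 784 ± 11.3 TPM, and the small heat shock protein Hspb6 at 721 ± 11.1 TPM. Next came the mitochondrial HSP70 Hspa9 at 434, Hspb8 at 399, Hspb1 at 275, the mitochondrial chaperonin Hspd1 at 252, the endoplasmic reticulum HSP90 Hsp90b1 at 198 and the cytosolic co-chaperone Dnaja2 at 181 TPM. These 10 genes held 73.5% ± 0.356 of the summed TPM of all members in FVB, 73.7% ± 0.0772 in Tg-RKIP and 73.2% ± 0.0985 for the Tg-GRK2 label (SD, n = 3 each). Neighbours among the 14 most abundant members did not overlap between FVB libraries in TPM, while Dnajb4 and Dnaja1, the next in order, did. The inducible HSP70 genes were far lower, with 7.96 TPM for Hspa1a and 11.5 TPM for Hspa1b. By family, small heat shock proteins held 36.3% ± 0.503 of the members' TPM in FVB and 39.1% ± 0.374 in Tg-RKIP, HSP90 14.3% ± 0.047 and 16.6% ± 0.0516, and the chaperonin 5.36% ± 0.0406 and 3.53% ± 0.0331 (SD, n = 3 each). In FVB the HSP70 and HSP110 genes held 23.2% ± 0.447, the 4 DNAJA genes 5.5% ± 0.141, the 13 DNAJB genes 5.05% ± 0.0633 and the 28 DNAJC genes 10.3% ± 0.145.

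**Figure D1:**
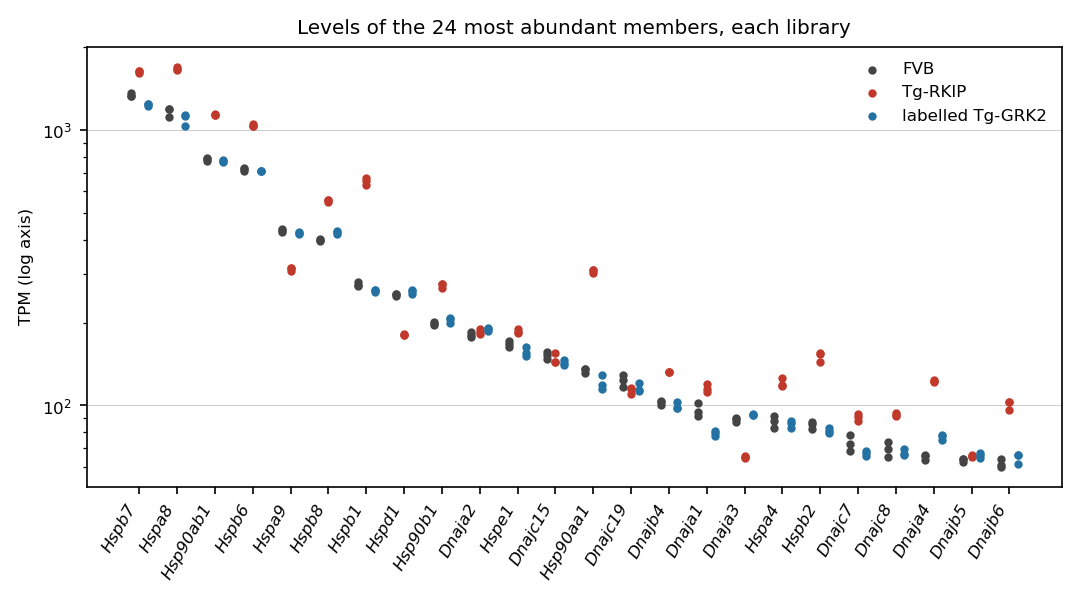
Transcript levels of the 24 most abundant members, ordered by their FVB mean, with 1 point per library (TPM, log axis; 3 libraries a group). Hspb7, Hspa8, Hsp90ab1 and Hspb6 lead in every group, while Tg-RKIP differs from FVB in Hsp90aa1 (308 against 134 TPM) and in Hspa9 (314 against 434 TPM).

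Tg-RKIP hearts showed no common shift of chaperone transcripts relative to the median gene, and with TMM a single direction in the mitochondrial members. All 3 HSP90 genes and 4 of 7 tested small heat shock proteins were higher than in FVB. All 8 members listed as mitochondrial, named below, were lower with TMM. With libraries scaled to their total only, 5 of the 8 were lower and 2 higher. Of 63 members tested, 22 were higher, 27 lower and 14 did not pass the threshold. Over all genes tested 36.8% were higher and 37.1% lower, so that 34.9% and 42.9% of the members is near the background. By at least 0.5 on the log2 scale 6 members were higher and 10 lower, where 20.9% and 18.2% of all genes were. The groups did not overlap in normalised CPM for 50 of the 63 members, against 75.7% of all genes. The median log2 fold change of the members was -0.0018 and that of all genes 0.0085. With libraries scaled to their total only, 45 members were higher and 11 lower, and 14 of the 49 members called with TMM had the opposite sign. With the total taken without mitochondrially encoded genes, a setting chosen after seeing the data, 34 were higher and 17 lower and 4 changed sign. Of the 14 members of the heat-shock-inducible set 7 were higher, the constitutive Hspa8 and Hsp90ab1 among them. Another 6 were lower and 1 was not called, and the median of the set was 0.027.

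**Figure D2:**
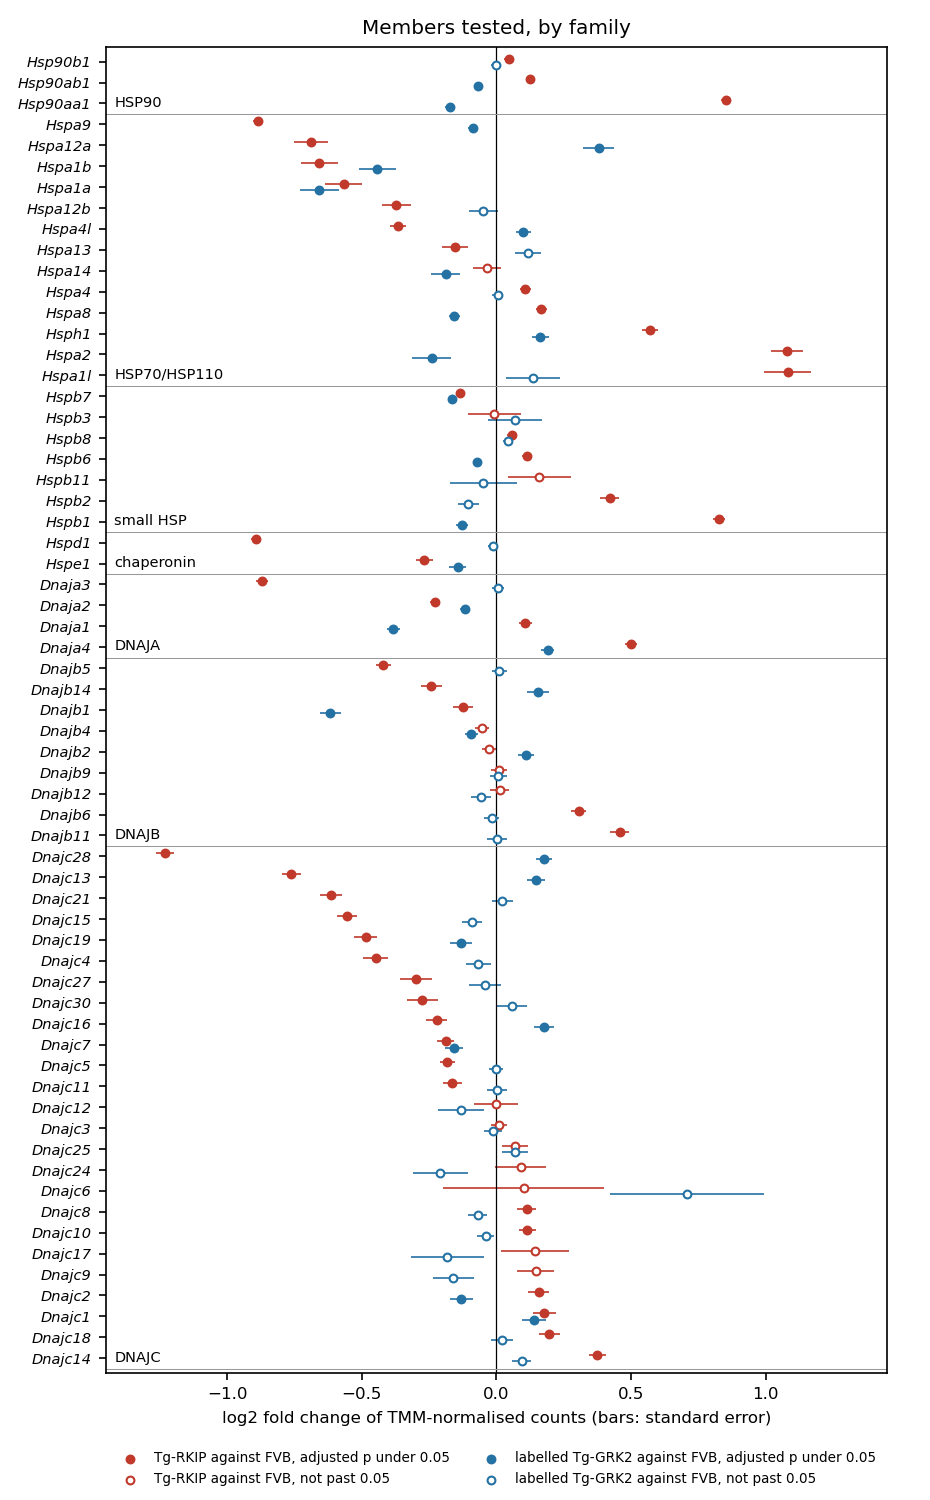
Log2 fold change against FVB of the 63 members tested, by family, for Tg-RKIP (red) and the libraries labelled Tg-GRK2 (blue), with the standard error as a bar; filled points passed an adjusted p of 0.05. Red points spread from -1.23 (Dnajc28) to 1.08 (Hspa1l), and the blue filled points from -0.66 (Hspa1a) to 0.38 (Hspa12a).

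Among the HSP90 genes the inducible isoform changed most. Hsp90aa1 (chromosome 12 from 110657039 to 110669162, coordinates as deposited, GRCm39) had 481, 474 and 475 normalised CPM in Tg-RKIP and 262, 266 and 265 in FVB (log2 fold change 0.85, standard error 0.019, adjusted p = 4.59e-20). Each Tg-RKIP library was above each control. Hsp90ab1 had 1546, 1569.7 and 1581 against 1437, 1448 and 1422 normalised CPM, also without overlap and with a far smaller log2 fold change of 0.13 (adjusted p = 1.83e-07). The ratio of Hsp90aa1 to Hsp90ab1 reads, which no scaling affects, was 0.305 ± 0.0058 in Tg-RKIP and 0.184 ± 0.00212 in FVB (SD, n = 3; exact two-sided permutation test, p = 0.1, the smallest that 3 libraries against 3 allow). Hsp90b1 was higher by 0.047 on the log2 scale (adjusted p = 0.029). All 3 HSP90 genes were also higher under both other scalings, where the all-gene median was itself 0.38 (library totals) and 0.18 (without mitochondrially encoded genes). Hsp90b1, at 0.42 and 0.22, was near those medians. Of the 50-base windows in Hsp90aa1 transcripts 47.5% occur in transcripts of other genes of GENCODE M21 too, mainly Gm12346, and how the authors' counting divided such reads is not given in the sources used here.

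Of the small heat shock proteins, Hspb1, which caps and protects actin filaments, stood out. Hspb1 (chromosome 5 from 135916773 to 135918417) had 328, 313 and 326 normalised CPM in Tg-RKIP against 178, 180.4 and 186 in FVB (log2 fold change 0.83, standard error 0.023, adjusted p = 1.24e-18). The lowest Tg-RKIP library was well above the highest control. Hspb2, encoded next to the crystallin gene Cryab, had 63.6, 60.2 and 65.3 against 45.5, 47.3 and 48.2 normalised CPM (log2 fold change 0.42, standard error 0.036, adjusted p = 6.49e-10), again with no overlap. The other changes were small: Hspb6 (0.11) and Hspb8 (0.056) were higher and the most abundant member, Hspb7, was lower (-0.13, adjusted p = 2.09e-08), although Hspb7 was higher by 0.24 with libraries scaled to their total only and by 0.041 without mitochondrially encoded genes. Hspb3 (-0.0078) and Hspb11 (0.16), the latter a subunit of the intraflagellar transport machinery, did not pass the threshold. Windows shared with other genes made up 50.1% of Hspb1, mainly the pseudogene Hsp25-ps1, and 24.4% of Hspb2, all with Cryab, whose reads ran parallel. The ratio of Hspb2 to Cryab reads was 0.0355 ± 0.00137 in Tg-RKIP and 0.0343 ± 0.000914 in FVB (SD, n = 3; exact permutation test, p = 0.3). In the same libraries all 7 fibroblast markers were higher, as given above. Of 4 smooth muscle markers 3 were higher and 1 lower. The skeletal muscle list, which does not separate skeletal from heart muscle, gave 2 higher and 1 lower of 3 tested.

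The HSP70 and HSP110 genes split, with 5 higher, 7 lower and 1 not called in Tg-RKIP. These are 38.5% and 53.8%, beside 36.8% and 37.1% of all genes, and library totals gave 7 higher and 4 lower. Hspa2, an HSP70 best known from male germ cells, had 21.7, 21.9 and 22.3 normalised CPM in Tg-RKIP and 11.0, 10.8 and 9.23 in FVB (log2 fold change 1.08, standard error 0.061, adjusted p = 5.31e-13). All Tg-RKIP libraries were above the controls, at a low level of 15.9 TPM. Its reads were divided between transcripts of 2524 and 2526 bases in a share that varied widely within the FVB and Tg-GRK2 groups, and on the main one alone the call was lost (log2 fold change 0.60, standard error 0.84, adjusted p = 0.571). Hspa1l, a further HSP70 of germ cells, had 11.0, 10.7 and 10.5 against 5.40, 5.48 and 4.29 normalised CPM (log2 fold change 1.08, standard error 0.087, adjusted p = 2.78e-10). Hspa1l shares 71.4% of its 50-base windows with Gm10501 on the opposite strand, for which 0 to 19 reads were counted. Hsph1, an HSP110 nucleotide exchange factor that heat shock induces, had 88.7, 87.5 and 83.6 against 56.7, 59.7 and 58.5 normalised CPM, with no overlap (log2 fold change 0.57, standard error 0.031, adjusted p = 2.85e-13). Hspa8 (0.17, adjusted p = 6.2e-08) and the HSP110 gene Hspa4 (0.11, adjusted p = 0.000103) were slightly higher, and Hspa4l, their close relative, was lower (-0.36, adjusted p = 1.86e-10) but 0.01 with libraries scaled to their total only.

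Both inducible HSP70 genes were lower in Tg-RKIP hearts. Hspa1a (chromosome 17 from 35188166 to 35191132) had 11.6, 11.6 and 11.6 normalised CPM in Tg-RKIP and 17.9, 15.2 and 18.6 in FVB (log2 fold change -0.57, standard error 0.069, adjusted p = 2.07e-07). Hspa1b (chromosome 17 from 35175412 to 35178214) had 15.6, 14.4 and 14.8 against 22.3, 26.7 and 21.3 (log2 fold change -0.66, standard error 0.069, adjusted p = 2.1e-08). Neither gene overlapped between the groups, but the controls spread more than the Tg-RKIP libraries, and the control lowest in Hspa1a was highest in Hspa1b. The copies share 58.8% of the windows of Hspa1a and 62.3% of those of Hspa1b, so that their split is uncertain. Their sum does not depend on it and was 26.6 ± 0.588 normalised CPM in Tg-RKIP and 40.7 ± 1.07 in FVB (SD, n = 3; exact two-sided permutation test, p = 0.1). On TPM the difference was smaller, with 7.15 ± 0.0470 against 7.96 ± 0.849 for Hspa1a, and limma on log2(TPM + 0.1) gave -0.15 (adjusted p = 0.111), where the median of all genes was 0.43. Of the distant HSP70 relatives, Hspa12a had 9.65, 9.63 and 10.2 against 15.7, 15.5 and 16.2 normalised CPM (log2 fold change -0.69, standard error 0.063, adjusted p = 2.42e-09) and Hspa12b, a gene of endothelial cells, changed by -0.37 (adjusted p = 3.36e-06). With library totals Hspa12b was not called (0.0038, adjusted p = 0.953). The microsomal Hspa13 was lower by TMM (-0.15) and higher by library total (0.22).

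**Figure D3:**
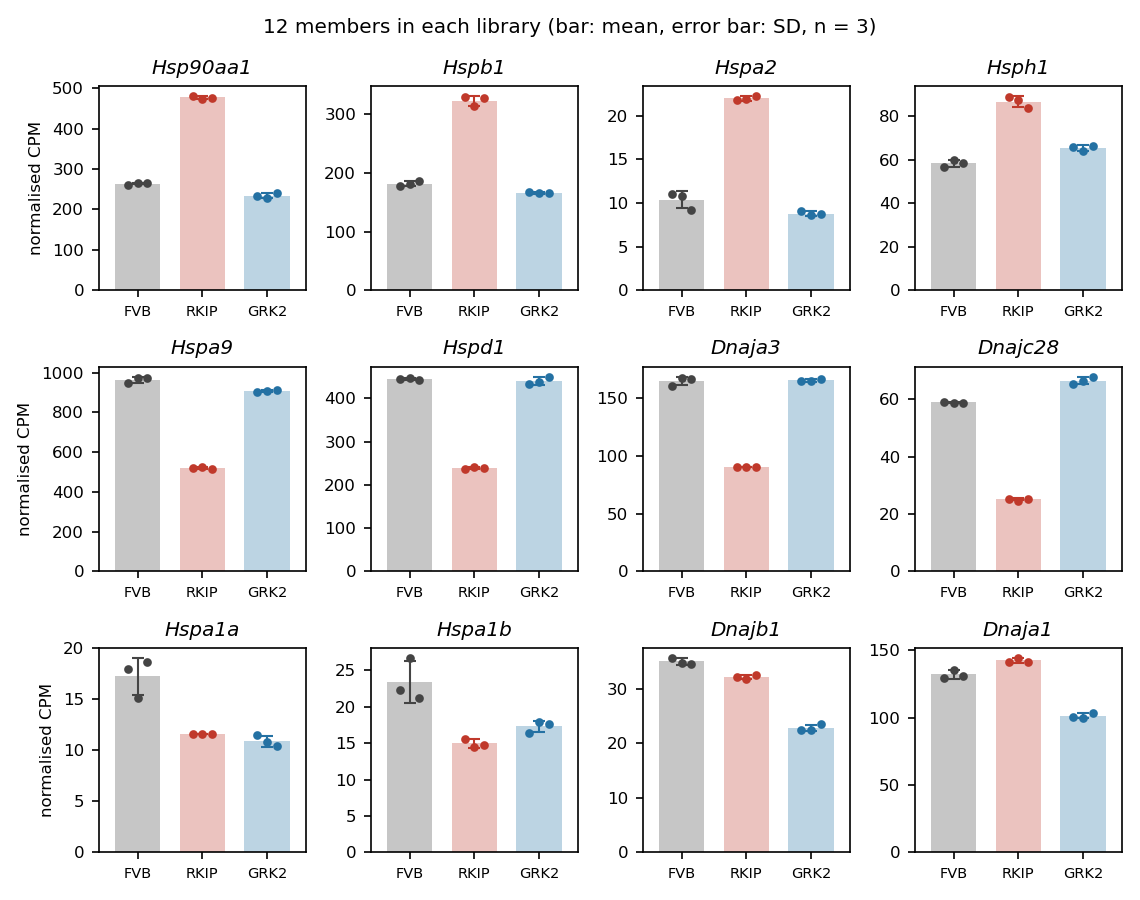
Normalised CPM of 12 members in each library, with the group mean as a bar and the SD as an error bar (n = 3; RKIP and GRK2 stand for the libraries labelled Tg-RKIP and Tg-GRK2). The top row holds members higher in Tg-RKIP, and the middle row members listed as mitochondrial and Dnajc28, lower in Tg-RKIP. The bottom row holds the inducible genes, with Dnajb1 and Dnaja1 lowest in the libraries labelled Tg-GRK2.

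The mitochondrial members moved together in Tg-RKIP hearts. Those listed as mitochondrial were Hspa9, Hspd1, Hspe1, Dnaja3, Dnajc11, Dnajc15, Dnajc19 and Dnajc30, a list that need not be complete. All 8 were lower than in FVB with TMM, with a median log2 fold change of -0.52 beside 0.0085 for all genes. Hspa9, the mitochondrial HSP70 that pulls precursors into the matrix and folds them, had 522, 528 and 516 normalised CPM in Tg-RKIP and 948, 975 and 972 in FVB (log2 fold change -0.89, standard error 0.017, adjusted p = 2.71e-21). Hspd1 (chromosome 1 from 55116994 to 55127402), the HSP60 chaperonin, had 236, 241 and 240.3 against 444, 447 and 442 (log2 fold change -0.89, standard error 0.019, adjusted p = 1.25e-20). Dnaja3 (chromosome 16 from 4457853 to 4525559), the J-domain partner of Hspa9, had 90.0, 90.0 and 90.2 against 160.4, 167 and 166 (log2 fold change -0.87, standard error 0.023, adjusted p = 7.8e-19). For these 3 genes every Tg-RKIP library was far below every control, and the log2 fold changes were -0.51, -0.52 and -0.50 even with libraries scaled to their total only. The ratio of Hspa9 to Hspd1 reads was 2.18 ± 0.0293 in Tg-RKIP and 2.17 ± 0.0338 in FVB, and that of Dnaja3 to Hspa9 0.173 ± 0.00204 and 0.171 ± 0.00121 (SD, n = 3 each; exact two-sided permutation tests, p = 0.6 and p = 0.3).

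With TMM the lid of the chaperonin fell less than its barrel. Hspe1, which encodes HSP10, had 77.3, 80.0 and 77.9 normalised CPM in Tg-RKIP against 91.5, 96.8 and 94.7 in FVB (log2 fold change -0.27, standard error 0.031, adjusted p = 1.14e-07). The ratio of Hspe1 to Hspd1 reads was 0.328 ± 0.004 in Tg-RKIP, 0.212 ± 0.00544 in FVB and 0.194 ± 0.00596 in the libraries labelled Tg-GRK2, with no overlap of Tg-RKIP with either (SD, n = 3 each; exact two-sided permutation test, p = 0.1 for each). The import motor subunits Dnajc15 (-0.56, adjusted p = 1.1e-11) and Dnajc19 (-0.49, adjusted p = 7.2e-10) lay between Hspa9 and Hspe1. With library totals they were at -0.18 and -0.11. In FVB 51.1% of Dnajc15 reads were on a transcript annotated for nonsense-mediated decay, and 68.9% of Dnajc19 reads on one with a retained intron. Dnajc30 (-0.28) was close to Hspe1, and Dnajc11 (-0.16), an inner membrane organising protein, changed least of the 8. With libraries scaled to their total only, 5 of the 8 were lower, Hspe1 and Dnajc11 were higher (0.11 and 0.21) and 1 was not called. Without mitochondrially encoded genes in the total, 6 of the 8 were lower and 2 not called. In the same libraries 6 of 7 cardiomyocyte markers were lower and the share of mitochondrially encoded reads was lower, and their part in this result was not tested. Windows shared with other genes make up 42.1% of Hspd1 and 22.8% of Hspe1, 5.61% of Dnaja3 and 2.81% of Hspa9.

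**Figure D4:**
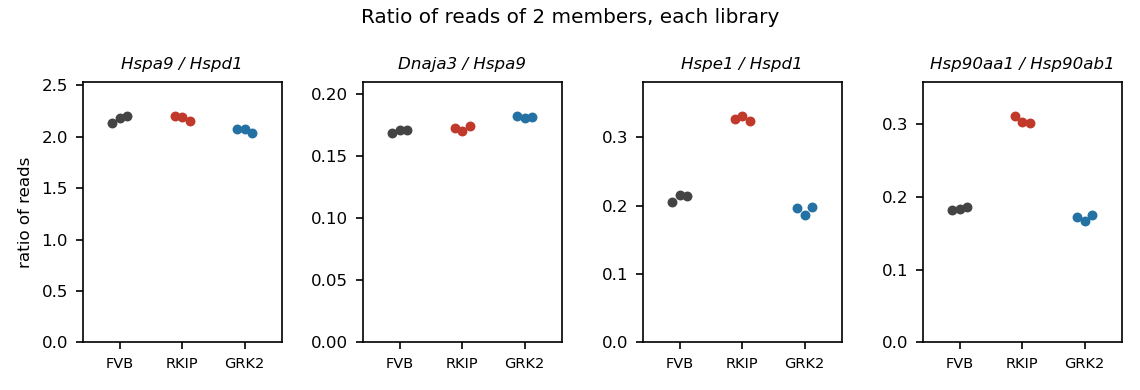
Ratio of the reads of 2 members in each library, with 1 point per library and a vertical axis from 0. Hspa9 to Hspd1 and Dnaja3 to Hspa9 lie close together in Tg-RKIP and FVB, whereas Hspe1 to Hspd1 (0.328 against 0.212) and Hsp90aa1 to Hsp90ab1 (0.305 against 0.184, means) are higher in all 3 Tg-RKIP libraries.

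The cytosolic and endoplasmic reticulum DNAJ genes showed no single direction in Tg-RKIP with TMM. Of the DNAJA genes, Dnaja4 had 198, 202 and 205 normalised CPM against 138, 145 and 145 in FVB, without overlap (log2 fold change 0.50, standard error 0.023, adjusted p = 1.93e-14). Dnaja4 shares 42.7% of its windows with Wdr61 on the opposite strand, for which 494 to 837 reads were counted. Dnaja1 was slightly higher (0.11, adjusted p = 0.000428) and Dnaja2 lower (-0.23, adjusted p = 4.27e-10), the latter reversing to 0.15 with library totals. Of 9 DNAJB genes tested, 2 were higher, 3 lower and 4 not called, or 22.2% and 33.3% beside 36.8% and 37.1% of all genes. With library totals 8 were higher and 0 lower. Dnajb11, which feeds clients to the endoplasmic reticulum HSP70, had 59.1, 60.8 and 58.0 against 42.0, 45.2 and 42.4 normalised CPM (log2 fold change 0.46, standard error 0.035, adjusted p = 1.09e-10). Dnajb6, known from inherited myopathy, was the other member that rose (0.31, adjusted p = 1.01e-09). Dnajb5 fell by 0.42 on the log2 scale (adjusted p = 8.45e-12), Dnajb14 by 0.24 and Dnajb1, the classical HSP40 partner of HSP70, by 0.12 (adjusted p = 0.00496). With library totals Dnajb5 was not called (-0.045, adjusted p = 0.133), and Dnajb14 and Dnajb1 were higher, by 0.13 and 0.25. Of the 9 endoplasmic reticulum members 4 were higher, 2 lower and 3 not called, with a median of 0.012. With library totals all 9 were higher, with a median of 0.39 where that of all genes was 0.38.

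The DNAJC family gave 6 higher, 12 lower and 7 not called of 25 tested, and it held the member that fell furthest. These are 24% and 48%, beside 36.8% and 37.1% of all genes, and library totals gave 16 higher and 5 lower. Dnajc28 (chromosome 16 from 91411142 to 91415914) had 25.3, 24.7 and 25.3 normalised CPM in Tg-RKIP and 59.0, 58.7 and 58.8 in FVB (log2 fold change -1.23, standard error 0.034, adjusted p = 1.9e-18). No Dnajc28 window of 50 bases occurs in another gene, the groups lay far apart, and the log2 fold change was -0.86 with library totals. Dnajc21, which acts in the maturation of large ribosomal subunits, had 28.7, 30.0 and 30.7 against 45.6, 47.6 and 43.6 normalised CPM (log2 fold change -0.62, standard error 0.04, adjusted p = 7.71e-12). Dnajc13, an endosomal sorting protein, had 34.1, 34.7 and 33.9 against 60.1, 58.3 and 55.8 normalised CPM (log2 fold change -0.76, standard error 0.035, adjusted p = 1.16e-14), but its TPM rose from 15.7 ± 1.14 to 23.6 ± 2.01 (SD, n = 3), a scale on which reads of short transcripts weigh more. There limma on log2(TPM + 0.1) gave 0.59, past the threshold, where the median of all genes was 0.43. The 6 members of the family that were higher lay between 0.11 (Dnajc8) and 0.38 (Dnajc14), among them the ribosome-associated Dnajc2 (0.16).

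The libraries labelled Tg-GRK2 share their 3 controls with the comparison above. Fewer members passed the threshold than in Tg-RKIP (29 against 49), as did fewer of all genes (24.5% against 73.9%). Of the 14 members of the heat-shock-inducible set 10 were lower, the constitutive Hspa8 and Hsp90ab1 among them, and 2 higher. Of the 63 members 10 were higher, 19 lower and 34 not called, where 12.2% of all genes were higher and 12.2% lower, so the members' 15.9% is near and their 30.2% above the background share. By at least 0.5 on the log2 scale 0 members were higher and 2 lower (2.06% and 1.63% of all genes), and the groups did not overlap for 33 of the 63 (37.1% of all genes). The members' median was -0.039 and that of all genes -0.0023. Scaling to the library total gave 12 higher and 19 lower, but the number lower was 6 with limma on log2(TPM + 0.1), 5 with limma without a filter and 11 on the main transcript of each gene. In the inducible set Hsph1 and Hspa4l were the members higher, Hspa4 and Hspd1 were not called, and the median was -0.14. Cardiomyocyte and fibroblast markers moved in the same libraries, as given above.

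The largest differences were those of the inducible HSP70 genes and their partners. Hspa1a had 11.5, 10.8 and 10.4 normalised CPM in the libraries labelled Tg-GRK2 and the FVB values given above (log2 fold change -0.66, standard error 0.073, adjusted p = 5.47e-07), and Hspa1b had 16.5, 17.9 and 17.6 (log2 fold change -0.44, standard error 0.07, adjusted p = 5.45e-05). Both lay below all controls, and their sum was 28.2 ± 0.474 normalised CPM against 40.7 ± 1.07 in FVB (SD, n = 3; exact two-sided permutation test, p = 0.1). Dnajb1 (chromosome 8 from 84334822 to 84339282) had 22.4, 22.5 and 23.5 normalised CPM against 35.7, 34.7 and 34.6 (log2 fold change -0.62, standard error 0.04, adjusted p = 1.83e-10). Dnaja1, a co-chaperone of cytosolic HSP70, had 101, 100.1 and 104 against 129.7, 136 and 131 (log2 fold change -0.38, standard error 0.025, adjusted p = 2.12e-10). Both lay below the controls in all 3 libraries. Dnaja1 lost the call on its main transcript by TPM (-0.24, adjusted p = 0.201), that of 916 bases, with 28.2% of its reads in these libraries. Its transcript of 3376 bases, with 61.8%, had 1648, 1645 and 1913 reads before scaling, against 2111, 2328 and 2010 in FVB. Hspa8 (-0.16), Hsp90aa1 (-0.17), Hspb7 (-0.16), Hspb1 (-0.13), Hspe1 (-0.14), Dnajb4 (-0.093), Hsp90ab1 (-0.069) and Hspb6 (-0.071) were lower by small steps that passed the threshold. Hspa2 (-0.24, adjusted p = 0.0202) and Hspa14, an HSP70 of the ribosome-associated complex (-0.19, adjusted p = 0.0145), lost the call without some libraries (4 of 6 for Hspa2 and 2 of 6 for Hspa14, adjusted p up to 0.0954), with limma and on the main transcript, and Hspa2 with DESeq2 also.

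Few members were higher in these libraries. Hspa12a had 19.8, 19.7 and 22.1 normalised CPM against 15.7, 15.5 and 16.2 (log2 fold change 0.38, standard error 0.057, adjusted p = 3.12e-05), without overlap. Dnaja4 had 159, 164 and 165 against 138, 145 and 145 (log2 fold change 0.19, standard error 0.024, adjusted p = 3.38e-06), and Hsph1 was higher by 0.16 (adjusted p = 0.000714) while Hspa1a, Hspa1b and Dnajb1 were lower. With limma on TPM Hsph1 was not called (0.15 at either pseudocount, adjusted p from 0.16 to 0.29). Dnajc28 (0.18), Dnajc16 (0.18), Dnajb14 (0.15) and Dnajc13 (0.15) were slightly higher, with no overlap. Dnajc13 lost its call with limma on TPM (0.04, adjusted p from 0.773 to 0.859) and on its main transcript (0.095, adjusted p = 0.558), and Dnajc1 (0.14, adjusted p = 0.0272) lost its call without any 1 of 4 of the 6 libraries (adjusted p up to 0.148), with limma and on the main transcript. Of the members listed as mitochondrial, Hspa9 (-0.088, adjusted p = 0.000524), Hspe1 and Dnajc19 (-0.13, adjusted p = 0.0232) were lower and 5 were not called, with Hspd1 at -0.013 and Dnaja3 at 0.0046. Dnajc6, auxilin, had 0.71 with a standard error of 0.29 and was not called (adjusted p = 0.081), at 1.42, 1.30 and 0.827 normalised CPM.

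Set directly against the libraries labelled Tg-GRK2, Tg-RKIP hearts had 25 members higher, 25 lower and 13 not called, where 37.9% of all genes were higher and 36.6% lower. By at least 0.5 it was 5 and 8 (21.2% and 19% of all genes), and 52 of the 63 did not overlap (76.4% of all genes). Library totals gave 43 higher and 10 lower, with the all-gene median at 0.38. The differences that exceeded 0.9 in size were those of Hspa2 (1.32), Hsp90aa1 (1.03), Hspb1 (0.96) and Hspa1l (0.95) upwards, and of Dnajc28 (-1.41), Hspa12a (-1.07) and Dnajc13 (-0.91) downwards, with adjusted p from 1.85e-21 to 1.39e-09. Of these Hspa2 lost its call on the main transcript (1.42, adjusted p = 0.193), and Dnajc13 had the opposite sign with limma on TPM. Of the 14 members of the inducible set 8 were higher, the constitutive Hspa8 and Hsp90ab1 among them, and 4 lower. Dnajb1 (0.49, adjusted p = 2.16e-10), Dnaja1 (0.49, adjusted p = 6.45e-14), Hspb2 (0.52) and Dnajb11 (0.46) were higher in Tg-RKIP. All 8 members listed as mitochondrial were lower, with a median of -0.41, Hspd1 at -0.88, Dnaja3 at -0.88 and Hspa9 at -0.80. Dnajc21 (-0.64) and Hspa4l (-0.46) were lower too. With library totals 4 of the 8 listed as mitochondrial were lower and 2 higher. Hspa1a did not pass the threshold (0.091, adjusted p = 0.275) and Hspa1b was lower by a little (-0.22, adjusted p = 0.0108), although it was 0.15 with library totals and lost its call without Tg-RKIP replicate 2 (-0.19, adjusted p = 0.0508).

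The main transcript of a gene is the one with the highest mean TPM over all libraries, and it need not hold most of the reads. On the main transcript alone 2 of the 49 members called in Tg-RKIP against FVB, and 4 of the 50 called against the libraries labelled Tg-GRK2, had the opposite sign. Dnajc13, Dnaja1 and Dnajb1, named members that changed direction with TPM or the main transcript in at least 1 comparison, are described here. How the authors divided reads among the transcripts of a gene is not given in the sources used here, so these shares are the deposited ones. Dnajc13 had 3 transcripts with at least 100 reads in some library. Its transcript of 6747 bases had 0, 8 and 0 reads in Tg-RKIP against 189, 427 and 315 in FVB and 373, 467 and 488 in the libraries labelled Tg-GRK2. A fragment of 668 bases had 71, 105 and 89 reads in Tg-RKIP against 31, 37 and 28 in FVB. That fragment held 7.7% ± 0.99 of the gene's reads in Tg-RKIP and 2.12% ± 0.109 in FVB (SD, n = 3). Dnaja1 put 78.9% ± 1.03 of its reads on the transcript of 3376 bases in Tg-RKIP, against 62.7% ± 2.21 in FVB and 61.8% ± 1.06 in the libraries labelled Tg-GRK2. A transcript of 916 bases, the main one by TPM, took 16.7% ± 1.22 in Tg-RKIP, 25.7% ± 3.23 in FVB and 28.2% ± 0.396 with the Tg-GRK2 label. Dnajb1 had a transcript of 2854 bases with 226, 261 and 467 reads in Tg-RKIP, 11, 109 and 61 in FVB and 0, 27 and 0 in the libraries labelled Tg-GRK2. This was 30.4% ± 15.0 of its reads in Tg-RKIP, a share that differed widely between those 3 libraries, and 6.51% ± 4.97 in FVB.

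**Figure D5:**
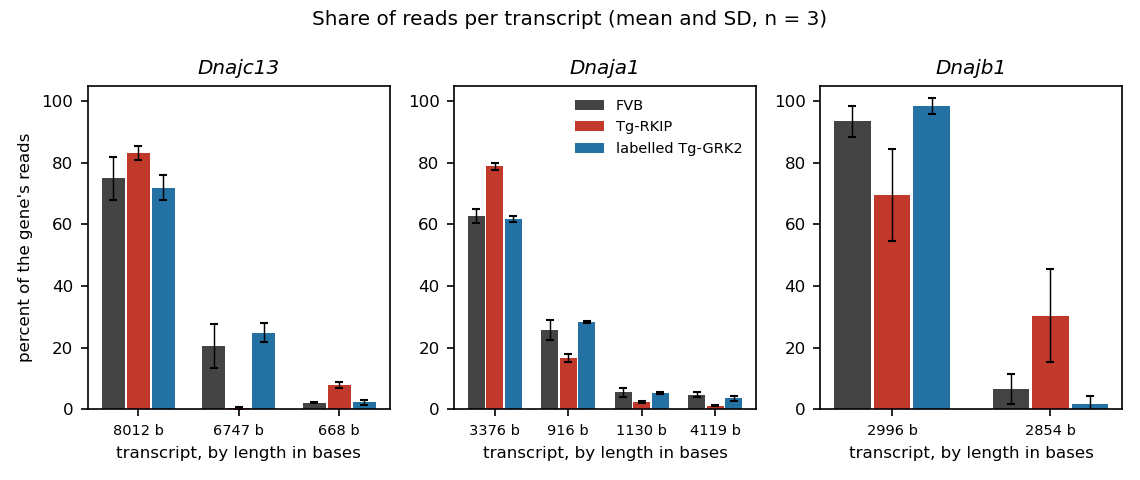
Share of a gene's reads on each transcript with at least 100 reads in some library, for Dnajc13, Dnaja1 and Dnajb1, as mean and SD (n = 3), with transcripts named by their length in bases. The Dnajc13 transcript of 6747 bases is near 0 in Tg-RKIP and at 20.5% in FVB, and the Dnajb1 transcript of 2854 bases has a wide SD in Tg-RKIP.

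Other genes of the chaperone machinery, 47 in all, gave 21 higher, 15 lower and 11 not called in Tg-RKIP against FVB, and 3 higher, 17 lower and 27 not called in the libraries labelled Tg-GRK2. These are 44.7% higher and 31.9% lower in the former, beside 36.8% and 37.1% of all genes, and 6.38% and 36.2% in the latter, beside 12.2% each. Their medians were 0.058 and -0.043. Of the heat shock factors, Hsf1, the main activator, was lower in Tg-RKIP with TMM (-0.36, adjusted p = 2.39e-06). On TPM it was not lower, with 17.3 ± 0.953 against 16.8 ± 0.770 in FVB (SD, n = 3), where limma gave an all-gene median of 0.43. Hsf2 was not called (-0.042), and Hsf4, known from the lens, was higher (0.94, adjusted p = 9.16e-07) at 5.24 against 2.71 normalised CPM. The mitochondrial partners went down as their chaperones did. Grpel1 (-0.51) and Grpel2 (-0.63), the nucleotide exchange factors of Hspa9, and Trap1, the mitochondrial HSP90 (-0.70), were each lower with adjusted p of at most 2.32e-10. Of 16 HSP90 co-chaperones 8 were higher and 4 lower. The immunophilin Fkbp5, a glucocorticoid-responsive regulator of steroid receptor complexes, had 46.1, 45.5 and 42.6 normalised CPM in Tg-RKIP, 23.5, 24.9 and 23.3 in FVB and 14.8, 15.3 and 14.3 in the libraries labelled Tg-GRK2, so that it was higher in the former (0.90, adjusted p = 2.73e-14) and lower in the latter (-0.70, adjusted p = 2.39e-09). Its relative Fkbp4 had the opposite directions (-0.77 and 0.20, adjusted p = 1.47e-18 and 2.14e-07). Cdc37l1 was lower (-0.87) and Tomm34, which escorts mitochondrial precursors in the cytosol, was higher (0.65) in Tg-RKIP.

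Cryab, the most abundant small heat shock protein of muscle, had 4472 ± 112 TPM in Tg-RKIP against 2541 ± 52.1 in FVB (SD, n = 3). On normalised CPM it had 1778 against 1372 (log2 fold change 0.37, standard error 0.016, adjusted p = 3.14e-15). Bag3, which works with Hspb8 in the turnover of muscle filaments (0.29, adjusted p = 4.31e-12), and the ubiquitin ligase Stub1 (0.13, adjusted p = 0.0012) were higher as well. Among the subunits of the cytosolic chaperonin TRiC 4 of 8 were higher and 2 lower in Tg-RKIP, whereas 7 of 8 were lower in the libraries labelled Tg-GRK2, by at most 0.17 on the log2 scale (Cct8, -0.17), where 12.2% of all genes were lower. The prefoldin genes gave 2 higher and 2 lower of 6 in Tg-RKIP, and the BAG and other HSP70 co-chaperones 4 higher and 5 lower of 11.

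Another 8 members had 0 to 10 reads in every library and were not tested, namely Dnajb3, Dnajb7, Dnajb8, Dnajb13, Dnajc5b, Dnajc5g, Dnajc22 and Hspb9. Dnajb8 had 1 read in 1 of the 9 libraries and Dnajc5g likewise, and a count of 0 allows up to 3 reads, or 0.0897 to 0.118 CPM of all reads across the libraries. Several well expressed members moved little in any comparison with TMM. Dnajb9, an endoplasmic reticulum co-chaperone, had 0.0096 and 0.007 against FVB in Tg-RKIP and the libraries labelled Tg-GRK2, and Dnajc3, which acts in the same compartment, had 0.0094 and -0.012, with standard errors of 0.031 to 0.032. Dnajc12 and Hspb3 did not pass the threshold in any comparison with TMM, but their standard errors of up to 0.1 leave smaller differences undetectable at this depth. With library totals Dnajb9 and Dnajc3 (0.38 each) and Dnajc12 and Hspb3 (0.37 each) were called higher in Tg-RKIP against FVB. The all-gene median was itself 0.38 there.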

How the data were processed

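Whole-heart RNA in 9 libraries, 3 a group as labelled, was sequenced as single reads of 50 bases after random-hexamer priming. The authors deposited read counts, whole numbers for 127558 transcripts, and TPM values per transcript, which equal those recomputed from the counts and transcript lengths to within 5.50e-06. The submitters' processing notes name GRCm39. The aligner, the counting program and its strand setting are not given in the sources used here. Here reads and TPM were summed by gene name, and no deposited column was left unmapped. The test of the counts used edgeR 4.0.16 under R 4.3.3 (TMM, filterByExpr, glmQLFit and glmQLFTest, 1 mean per group, Benjamini-Hochberg adjustment over 15504 genes). No library pair within a group was identical or agreed within sampling noise, the squared differences being 1.24 to 1.53 times those of noise. The depth is that of the report, and intervals of a count of 0 cover counting error only.

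The members and all gene lists were chosen with earlier results of these data known. Of the 72 members, 1 that was not tested is not reported here. Named with values were the 10 members of highest FVB TPM, up to 8 with the largest and 8 with the smallest log2 fold change per comparison among those called with a mean of at least 100 counts, Hspa1a and Hspa1b. Of the 47 other chaperone genes, those called in Tg-RKIP with a change of at least 0.5, Hsf1, Hsf2, Bag3, Cryab and Stub1 were named. Members and genes named beside these were chosen after their values were seen. Alternatives were DESeq2 1.42.0 and its size factors, library totals, limma 3.58.1 on log2(TPM + 0.1), with and without a filter of 1 TPM in 3 libraries, or with a pseudocount of 1, a tested fold of 1.5, no filter, the main transcript, only the 2 groups compared, the replicate number as a block and each library left out. The scripts were tested on simulated data.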

Additional observations from a re-analysis of the deposited data

How the results depend on the processing

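In Tg-RKIP against FVB the main counts of 22 members higher and 27 lower became 45 and 11 with library totals, 34 and 17 with totals without mitochondrially encoded genes (chosen after seeing the data), 43 and 8 with limma on log2(TPM + 0.1) or log2(TPM + 1), 44 and 5 with limma without a filter, and 4 and 5 when a fold of 1.5 was tested. In Tg-RKIP against the libraries labelled Tg-GRK2 the 25 and 25 became 43 and 10 with library totals, 38 and 16 without mitochondrially encoded genes, 42 and 7 with limma, 42 and 8 without a filter, and 4 and 6 at a fold of 1.5. In the libraries labelled Tg-GRK2 against FVB the 10 and 19 became 0 and 0 at a fold of 1.5, while the number lower was 6 with limma, 5 without its filter and 11 on the main transcript. The all-gene median moved too, to 0.43 and 0.40 in the first 2 comparisons with limma on log2(TPM + 0.1) and to 0.38 in each with library totals, and the cause of the other changes was not tested. Without its filter limma also ended the calls of Hspa12a and Hspa1b in the first comparison and of Dnajb14 and Hsp90aa1 in the last (adjusted p from 0.0547 to 0.065). Leaving out each library gave 21 to 23 higher and 27 to 28 lower in the first comparison, 23 to 25 and 23 to 25 in the second, and 9 to 12 and 16 to 20 in the last. Dnajc13 reversed with limma, to 0.59, 0.59 without the filter and 0.56 with a pseudocount of 1 against FVB, and to 0.54, 0.54 and 0.52 against the libraries labelled Tg-GRK2. In that last comparison Dnajb1 (-0.054) and Dnaja1 (-0.32) reversed on the main transcript, and Hspa1b with library totals (0.15) and limma (0.15, 0.15 and 0.14). For Dnaja1 the main transcript was that of 916 bases. Its transcript of 3376 bases, with more reads, had 3398 to 4447 reads in Tg-RKIP and 1645 to 1913 with the Tg-GRK2 label. The replicate block gave 22 higher and 27 lower, 25 and 24, and 10 and 20, in the same order, and changed no call of a named member. Same-numbered libraries did not deviate together (correlations -0.041 to 0.042), and 4 of 9 correlated best with their own number. DESeq2 gave 22 and 27, 23 and 24, and 11 and 16. Depth limits the 8 members with at most 10 reads, and small differences of members under about 10 CPM.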
